A study of Mus musculus with 6 samples.

Results

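The genes described here encode factors that translate mRNA and proteins that bind, store or repress it. They were chosen by symbol alone among the RefSeq mRNA of the deposited tables: every gene whose name begins as an initiation factor (Eif1 to Eif6), an elongation factor (Eef1, Eef2), or as Pabpc, Ybx, Cpeb, Celf, Pum, Igf2bp or Larp. This gave 84 of the 14455 genes listed. Of these, 51 belonged to initiation, 7 to elongation and 26 to mRNA storage. The groups also follow the symbol, so initiation includes kinases and cap-binding repressors, and storage includes Celf3, a regulator of splicing. The rule used no measured value, but it was set with earlier results of these data known.

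The data were from strand-specific, rRNA-depleted paired-end RNA sequencing of mouse mature sperm (4 samples) and testes (2 samples). The labels give all mice as C57BL/6 and 3 to 5 months old, while the study's methods name the substrain C57BL/6J and a younger age range, and neither names a treatment or genetic change. Sperm from the caudal epididymis and vas deferens were pooled over several mice, passed through a sieve and cleared of somatic cells with a detergent lysis buffer, and the testes came from the same mice. By the study's electrophoresis, sperm RNA was enriched in smaller sizes and lacked the ribosomal peaks seen in testes. The part of this in values by transcript or by length was not tested. The study left out sperm replicate 1 after a correlation check, so sperm replicates 2, 3 and 4 were compared with the 2 testes samples here and replicate 1 is given beside them. Testes are whole organs that hold germ cells of every stage with Sertoli and Leydig cells, so in bulk RNA fewer cells of a type and less RNA per cell cannot be told apart.

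In growing cells, the eIF4 factors bind the mRNA cap and unwind the leader, eIF2 and eIF3 bring the initiator tRNA and the small ribosomal subunit, and the eEF1 and eEF2 factors move the ribosome along. In the male germ line, transcription stops while the nucleus condenses, and spermatids keep protamine and other mRNAs in translationally silent particles held by Y-box proteins and poly(A)-binding proteins until their products are needed.

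Promoter sequence is shown for Celf3, whose sperm and testes counts fell on different transcript models, and for both genes called lower in sperm, Eif5b and Eif4a2. Sequences are from RefSeq, build GRCm38.p6, and cover the 250 bases before an annotated start. All 4 lie on the plus strand. For Celf3, outermost and innermost refer to the starts whose windows were given, and the gene itself is annotated from 94478285. Capitals mark the CCAAT box (CCAAT or its reverse ATTGG), the Y box (CTGATTGG or its reverse CCAATCAG, which contains the CCAAT box) and the cAMP response element, CRE (TGACGTCA, which reads the same on both strands). CRE elements are bound in spermatids by the activator CREM.
Celf3, outermost start, chr3:94478045-94478294: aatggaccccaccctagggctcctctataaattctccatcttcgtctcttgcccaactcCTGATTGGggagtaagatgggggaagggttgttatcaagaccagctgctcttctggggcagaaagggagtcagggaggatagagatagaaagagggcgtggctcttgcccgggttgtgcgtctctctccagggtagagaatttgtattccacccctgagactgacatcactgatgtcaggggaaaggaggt
Celf3, innermost start, chr3:94484108-94484357: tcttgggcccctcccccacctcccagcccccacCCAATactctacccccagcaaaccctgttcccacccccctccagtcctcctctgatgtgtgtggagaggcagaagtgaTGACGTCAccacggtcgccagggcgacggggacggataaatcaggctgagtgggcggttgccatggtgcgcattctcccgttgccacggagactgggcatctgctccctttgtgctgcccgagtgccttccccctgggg
Eif5b, chr1:37997760-37998009: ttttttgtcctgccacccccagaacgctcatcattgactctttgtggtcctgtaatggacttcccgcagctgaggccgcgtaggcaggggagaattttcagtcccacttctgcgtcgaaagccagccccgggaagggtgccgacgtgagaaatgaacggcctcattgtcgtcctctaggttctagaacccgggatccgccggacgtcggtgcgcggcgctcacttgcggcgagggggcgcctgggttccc
Eif4a2, chr16:23107218-23107467: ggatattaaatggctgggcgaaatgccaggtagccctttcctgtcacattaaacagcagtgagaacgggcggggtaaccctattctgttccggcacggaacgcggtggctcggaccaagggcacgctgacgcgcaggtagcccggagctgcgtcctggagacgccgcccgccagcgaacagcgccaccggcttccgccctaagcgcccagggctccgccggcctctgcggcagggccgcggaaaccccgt

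The window at the outermost Celf3 start held a Y box and the one at the innermost start held a CRE and a CCAAT box, whereas the Eif5b and Eif4a2 windows held none of these letters. Windows were given for 65 of the 84 genes, 96 windows in all, some of them overlapping. The CRE was in 5 of the 96 (5.21%, in Celf3, Celf6 and Larp7), against 1.55% of all 32851 windows. The Y box was in 6 (6.25%, against 3.83%) and the CCAAT box in 27 (28.1%, against 33.8%). Windows of neighbouring Celf3 starts overlapped, so the same CRE and the same Y box were each counted more than once. These counts are matches of letters only, and no binding was measured.

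Depth differed between the groups. The estimated counts on RefSeq mRNA, to which all levels below are scaled, ran from 33511 to 100027 in the 4 sperm samples and were 322625 and 314273 in testes, or 9.14% to 12.1% of all counts. Levels are given as parts per 1000000 of these counts (ppm), and 1 count was worth 10.0 to 29.8 ppm in sperm replicates 2 to 4 and 3.1 to 3.18 ppm in testes. Of 11 markers of spermatids and sperm, 10 were listed in sperm, where the protamine Prm2 led with 148, 49 and 130 counts, while Prm1 (2, 0 and 2 counts) and Tnp1 (2, 0 and 0 counts), called lower than in testes, were nearly absent. The markers of Sertoli cells took 0 to 0.0110% of mRNA counts in sperm replicates 2 to 4 against 0.00935% and 0.00802% in testes, and those of epididymal epithelium 0 to 0.00920% against 0.000310% and 0.00636%. In both lists sperm replicate 4 was above both testes samples, on few counts. Its Sertoli value was 6 counts, 4 of Ctsl and 2 of Clu, and its epididymal value was 5 counts of Adam7 alone. Those of spermatogonia and spermatocytes took 0 to 0.00800% against 0.0105% and 0.0121%. The 0.00800% was 8 counts of Sohlh1 alone in sperm replicate 2, against 2 in each testes sample. In sperm replicate 1, 6 counts of Sohlh1 gave 0.0142%, above both testes samples. The other genes of that list had 0 counts in all 4 sperm samples. Leukocyte markers took 0 to 0.00300% in sperm replicates 2 to 4 against 0.00527% and 0.00286% in testes. Those of Leydig cells took 0.0170%, 0.119% and 0.0110% in sperm replicates 2 to 4 against 0.0580% and 0.0541% in testes. The 0.119% of sperm replicate 3 was 40 counts of Star alone. The study reports very few non-sperm cells by microscopy. It also reports no PCR product of its leukocyte, testicular germ-cell and epithelial markers from purified sperm. In the counts used here its leukocyte marker, Cd4, had 2, 0 and 0 in sperm replicates 2, 3 and 4 and 4 and 0 in testes. Its germ-cell and epithelial markers, Kit and Cdh1, were not listed among the RefSeq mRNA of any sample. The part of other cells in the results below was not tested.

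Fewer of the translation and storage genes were listed in each sperm sample than in either testes sample. Sperm replicates 2, 3 and 4 listed 46, 11 and 25 of the 84 genes with an estimated count of at least 0.5, and replicate 1 listed 19, against 71 and 76 in testes. Sperm means were 27.3 ± 17.6 (SD, n = 3) and testes means 73.5 ± 3.54 (SD, n = 2), without overlap. The deepest sperm sample listed the most genes and the shallowest the fewest. Taken down to the smallest mRNA total, 33510 counts, the expected numbers were 35.1, 11.0 and 24.0 in sperm (18.5 in replicate 1) and 41.8 and 42.8 in testes. The ratio of the means rose from 0.372 as listed to 0.552 at one depth, beside 0.325 and 0.543 for all 14455 genes. Both differences had p = 0.2 (exact two-sided permutation test), the smallest p that 3 against 2 samples allow.

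**Figure D1:**
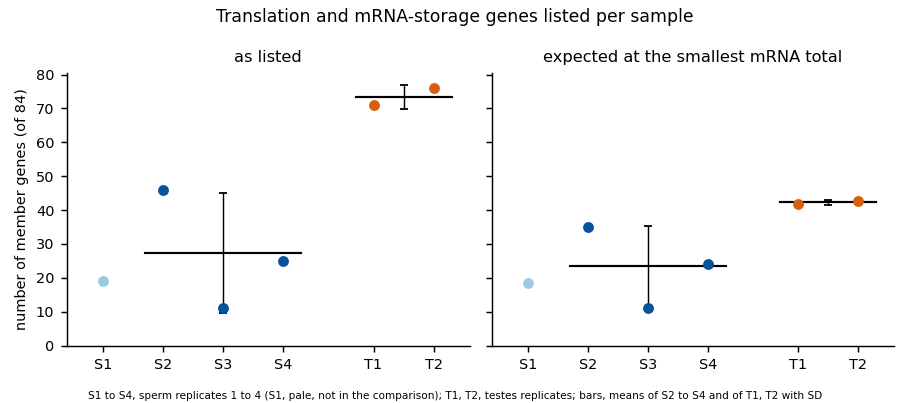
Number of the 84 translation and mRNA-storage genes with an estimated count of at least 0.5 in each sample (left) and the number expected at the smallest mRNA total (right); points are samples, horizontal bars the means of sperm replicates 2 to 4 and of testes, error bars the SD. All sperm samples lie below both testes samples in each panel, and the gap narrows from 27.3 against 73.5 to 23.4 against 42.3.

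In all, 48 of the 84 genes (57.1%) were listed in at least 1 of the 3 sperm samples, against 50.8% of all genes, and 9 (10.7%) in all 3, against 7.44%. In both testes samples 67 genes (79.8%) were listed, against 68.2% of all genes. The 9 present in every one of the 3 sperm samples covered 3 initiation genes, 1 elongation gene and 5 storage genes. The other 36 genes were at 0 in sperm replicates 2 to 4, which included 27 of the 51 initiation genes, 1 of the 7 elongation genes and 8 of the 26 storage genes.

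The share of mRNA counts taken by the 51 initiation genes was 0.186%, 0.122% and 0.132% in sperm replicates 2, 3 and 4 and 0.276% and 0.315% in testes. Every sperm value was below both testes values, with means of 0.147% ± 0.0342 (SD, n = 3) and 0.295% ± 0.0273 (SD, n = 2). The 26 storage genes took 0.323%, 0.179% and 0.323% in sperm and 0.300% and 0.426% in testes, so their groups overlapped. The 7 elongation genes took 0.128%, 0.116% and 0.162% in sperm and 0.0844% and 0.0913% in testes, the only group of the 3 in which every sperm value was the higher. That order rested on a single gene, Eef2kmt, an enzyme that methylates eEF2 and entered by its symbol. It held 89.8% of the group's sperm counts and 47.0% of its testes counts, and without it the log2 ratio of sperm to testes went from 0.62 to -1.67. The exact two-sided permutation test gave p = 0.2 for initiation and elongation and 0.6 for storage (adjusted over the 3 groups 0.3, 0.3 and 0.6).

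**Figure D2:**
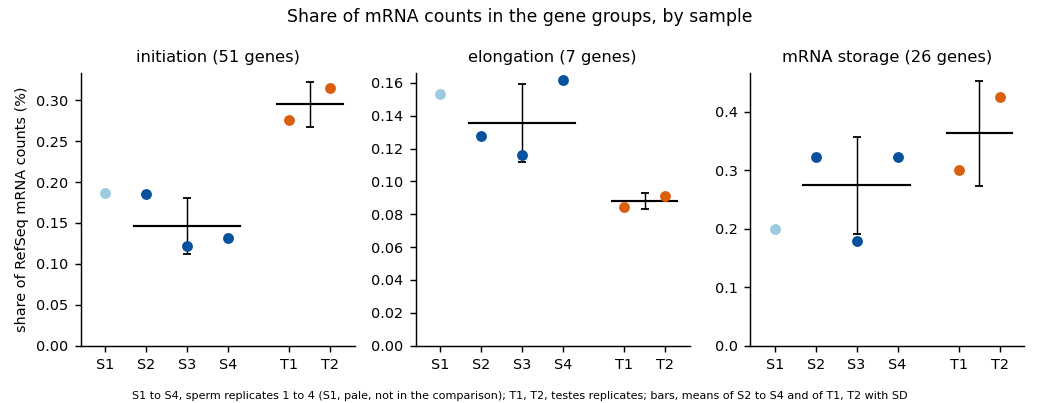
Share of RefSeq mRNA counts, in percent, held by the initiation, elongation and mRNA-storage genes in each of the 6 samples; horizontal bars are means of sperm replicates 2 to 4 and of testes and error bars the SD. Sperm lie below testes for initiation, above for elongation, where Eef2kmt holds 89.8% of sperm counts, and overlap testes for storage.

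For single genes, edgeR's quasi-likelihood test was fitted over the 6828 genes with a summed count of at least 10 in the 5 samples, and a gene was called at a Benjamini-Hochberg adjusted p below 0.05 and a fold change above 2. Of the 84 genes, 49 passed that minimum. Cpeb2 and Eif6 were called higher in sperm, among 3.54% of all genes tested, and Eif5b and Eif4a2 lower, among 3.65%. At an unadjusted p below 0.05, 4 were higher and 18 lower, beside 9.55% and 30% of all genes tested. Over all genes tested the median log2 fold change was -1.19, so a gene near 0 on this scale lay above the median. It shifted to -1.83 with TMM factors, where no member was called in either direction (all genes 0.337% higher and 1.32% lower), and to -2.13 with DESeq2's size factors, where 2 were called higher and 19 lower (all genes 2.81% and 33.4%). Without any test, 4 of the 84 genes had all 3 sperm values above both testes values, among 3.67% of all 14455 genes, and 35 had all 3 below, among 38.5%. The 4 were Cpeb2, Eif6, Pabpc6 and Eef2kmt, and in each of them sperm replicate 1 was also above both testes samples. Several genes below also have an adjusted p without sperm replicate 3. Of the fits that left out 1 sample, that one called the most genes (all genes 9.01% higher and 10.4% lower). Without sperm replicate 2 only Eif6 of the members was called (all genes 0.944% and 0.771%). Without sperm replicate 4 only Cpeb2 and Eif6 were called (all genes 3.72% and 2.4%).

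**Figure D3:**
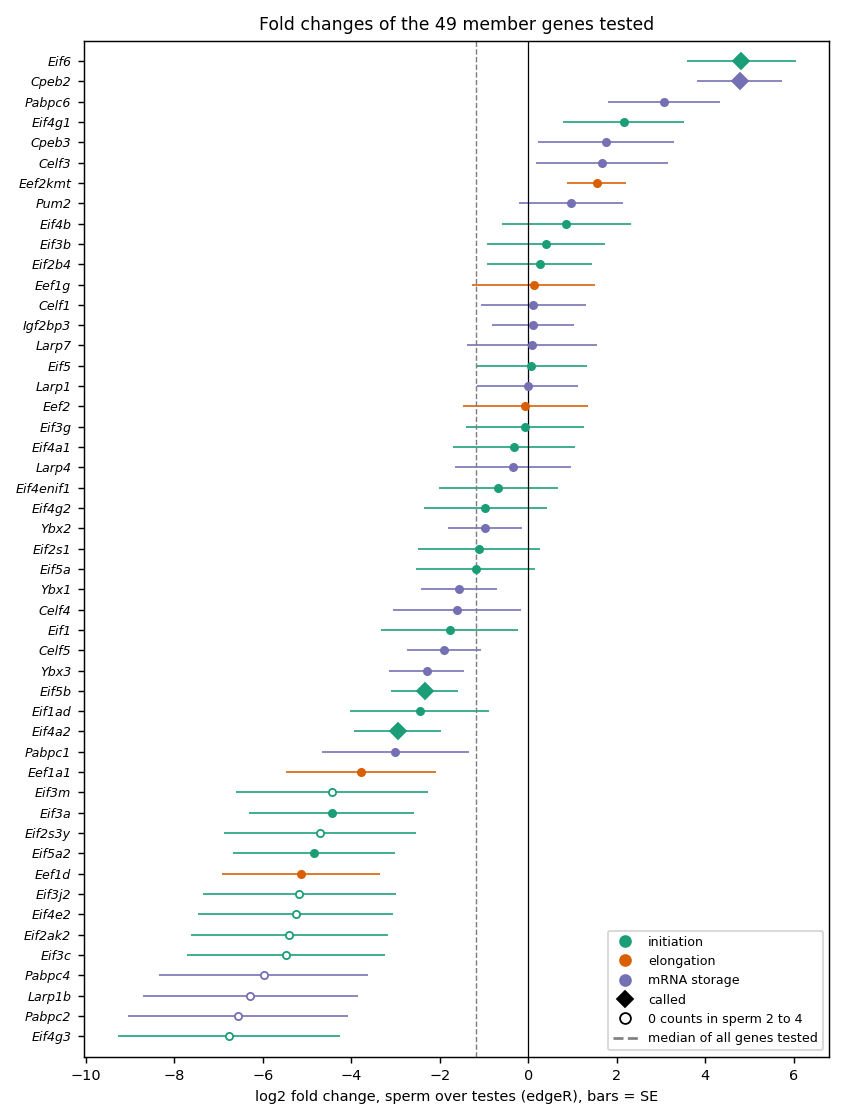
Log2 fold change of sperm replicates 2 to 4 over testes with its SE (edgeR) for the 49 genes tested, coloured by group; diamonds are called genes, open circles genes at 0 in the 3 sperm samples, whose fitted values depend on the prior count, and the dashed line the median of all genes, -1.19. Eif6 and Cpeb2 stand at the top, at 4.82 and 4.78.

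Cpeb2 binds the cytoplasmic polyadenylation element of stored mRNAs and represses or activates their translation. It lies on chromosome 5 (GRCm38.p6, 43225349 to 43289724), where the annotation also places the lncRNA Gm7854. It had 1089.7 ppm in sperm replicate 2, 388 in replicate 3 and 1012 in replicate 4. Testes had 40.3 and 19.1. The lowest sperm value was well above the higher testes value, and sperm replicate 1 had 708. These were 109, 13 and 55 counts in sperm and 13 and 6 in testes. On the log2 scale sperm differed from testes by 4.78 ± 0.97 (SE), with an adjusted p of 5.16e-05 by edgeR. The call was lost without sperm replicate 2 (4.54, adjusted p = 0.0534), with TMM factors (4.22, adjusted p = 0.0548) and without the minimum count (4.78, adjusted p = 0.178), and was kept under the other 11 alternatives.

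The other members of this family did not share that level. Per transcript length, Cpeb2 stood at 12.2 ± 5.99 FPKM in the 3 sperm samples and 0.505 ± 0.233 in the 2 testes samples (SD). Cpeb3 stood at 1.10 ± 1.17 FPKM in sperm and 0.375 ± 0.106 in testes, with 6, 0 and 7 counts in sperm, and its groups overlapped (edgeR adjusted p = 0.406). Cpeb1, the polyadenylation factor best known from oocytes, and Cpeb4 had 0 counts in all 4 sperm samples and few in testes (1 and 5 for Cpeb1, 2.6 and 2.3 for Cpeb4).

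Eif6 binds the large ribosomal subunit and keeps it from joining the small one. On chromosome 2 (155819837 to 155826925), it had 320, 627 and 460 ppm in sperm replicates 2, 3 and 4 against 15.5 and 15.9 in testes. All sperm values, with 189 in replicate 1, were above both testes values, which rested on 5 counts each. On the log2 scale sperm differed from testes by 4.82 ± 1.22 (SE), with an adjusted p of 0.00286 by edgeR. Without testes replicate 1 it was 4.79 with adjusted p = 0.164, without testes replicate 2 it was 4.83 with adjusted p = 0.201, with TMM factors 3.89 with adjusted p = 0.0548, and without the minimum count 4.82 with adjusted p = 0.172. Per length, Eif6 was at 31.3 ± 9.67 FPKM in sperm and 1.26 ± 0.0849 in testes (SD over 3 and 2 samples).

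Eif5b, the GTPase that joins the ribosomal subunits, was the initiation gene with the most counts in testes. It lies on chromosome 1 (37998010 to 38055579), overlapping Rev1 and a lncRNA. Its levels were 310, 0 and 285 ppm in sperm and 914 and 1179.5 in testes, with 543 in sperm replicate 1. No sperm value reached the testes range, and sperm replicate 3 was at 0. On the log2 scale sperm differed from testes by -2.34 ± 0.76 (SE), with an adjusted p of 0.0335 by edgeR. Of the fits that left out 1 sample, the call was kept only without sperm replicate 3 (-1.83, adjusted p = 0.00184). It was lost without sperm replicate 2 (-2.82, adjusted p = 0.165), sperm replicate 4 (-2.58, adjusted p = 0.0523), testes replicate 1 (-2.54, adjusted p = 0.292) and testes replicate 2 (-2.17, adjusted p = 0.316). It was kept in 3 of all 14 alternatives.

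Eif4a2, an RNA helicase of the cap-binding complex (chromosome 16, 23107468 to 23114132, with several snoRNA genes inside it), had 99.97, 0 and 110 ppm in sperm against 555 and 633 in testes, with 330 in sperm replicate 1. The groups did not overlap. On the log2 scale sperm differed from testes by -2.95 ± 0.99 (SE), with an adjusted p of 0.0431 by edgeR. The call was kept without sperm replicate 3 (-2.50, adjusted p = 0.000613) and lost without sperm replicate 2 (-3.26, adjusted p = 0.155), sperm replicate 4 (-3.27, adjusted p = 0.0560), testes replicate 1 (-3.08, adjusted p = 0.324) and testes replicate 2 (-2.90, adjusted p = 0.371). It was kept in 4 of all 14 alternatives. Its paralog Eif4a1 had 3, 0 and 2 counts in sperm and 14 and 6 in testes. Its fold change of -0.31 turned positive under 5 alternatives (0.71 with all 4 sperm samples).

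The scaffold eIF4G, which ties the cap-binding protein to the helicase and to eIF3, had paralogs on both sides of 0. Eif4g1 was at 390, 149 and 0 ppm in sperm and 49.6 and 31.8 in testes, so that 2 sperm samples lay above testes and replicate 4 at 0. On the log2 scale sperm differed from testes by 2.16 ± 1.37 (SE), with an adjusted p of 0.236 by edgeR, and it was called without sperm replicate 3 (2.34, adjusted p = 0.0331). Most of its sperm counts, 39, were in replicate 2, without which the difference was 0.71 (adjusted p = 0.716). Eif4g3, which male meiosis requires in mice, had 0 counts in all 4 sperm samples and 29 and 23 in testes. Taken at 3 counts over the 3 sperm samples, it was at least 5.11-fold lower in sperm (edgeR adjusted p = 0.0709, and 0.0262 without sperm replicate 3). The difference between both paralogs was not tested. The cap-binding protein Eif4e was at 0 in sperm and 3 counts in each testes sample, and its oocyte paralog Eif4e1b at 0 in sperm and 1 and 0 in testes.

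**Figure D4:**
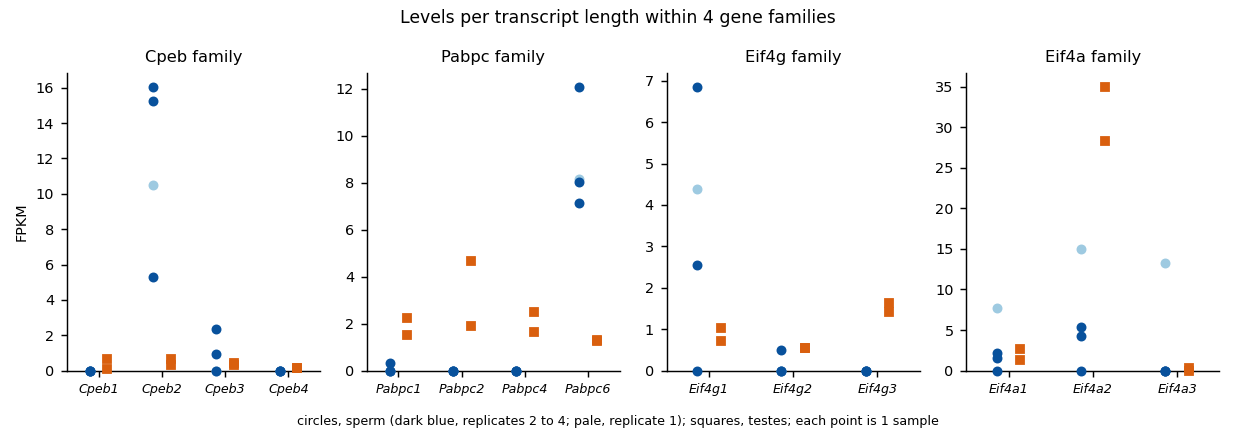
FPKM of the Cpeb, Pabpc, Eif4g and Eif4a genes, each point 1 sample; circles are sperm (dark, replicates 2 to 4; pale, replicate 1) and squares testes. In the Cpeb and Pabpc families 1 gene each, Cpeb2 and Pabpc6, lies above testes in every sperm sample, while Eif4a2 lies below.

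Other initiation factors were at few counts in sperm. The 14 eIF3 subunits, the scaffold that holds the small subunit, together had 31.1, 0 and 12 counts in sperm replicates 2, 3 and 4 and 94.1 and 122.8 in testes. As levels these were 311, 0 and 221 ppm against 292 and 391, so the groups overlapped. Of the 6 tested, 0 was called, beside 3.54% of all genes called higher and 3.65% lower. Eif3b made up 17 and 9 of the eIF3 counts in sperm, at 170, 0 and 166 ppm against 83.7 and 92.3. Its log2 fold change of 0.41 became -0.12 with TMM factors and -0.50 with DESeq2's size factors. Eif3a had 1.1 counts in sperm replicate 2 and 0 in the others, and 24.0 and 53.3 in testes. The pooled ratio of sperm to testes was 0.0440 (exact 95% interval 0.00110 to 0.253, counting error only), with edgeR adjusted p = 0.0764 and 0.0263 without sperm replicate 3.

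Eif5, which triggers GTP hydrolysis on eIF2, was with Eif6 and Eif4b 1 of the 3 initiation genes that had counts in each of sperm replicates 2 to 4. It had 80.0, 298 and 55.2 ppm in sperm and 65.9 and 197 in testes, with full overlap, and its log2 fold change of 0.07 turned to -1.07 with TMM factors. Eif5a2, the second gene for the hypusine-carrying factor, had 1 count in sperm replicate 2, 0 in the others, and 64 and 38 in testes. Its pooled ratio was 0.0332 (exact 95% interval 0.000833 to 0.189), with edgeR adjusted p = 0.0746 and 0.00708 without sperm replicate 3. The 9 genes of eIF2, its exchange factor eIF2B and relatives had 7, 0 and 0 counts in sperm and 28.0 and 36 in testes, or 70.0, 0 and 0 ppm against 86.6 and 115. Of the 3 tested, 0 was called, beside 3.54% of all genes called higher and 3.65% lower. Of 7 kinases and cap-binding repressors, 6 were at 0 in sperm replicates 2 to 4, where 50.8% of all genes were listed in at least 1. The 7 were also at few counts in testes, with 31.2 and 18.5 together, against 4, 0 and 0 in sperm. Of the 2 tested, 0 was called, beside the same shares of all genes.

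Of the elongation genes, Eef2kmt (chromosome 16, 5244155 to 5255956, overlapping Alg1) had 1149.7, 985 and 1491 ppm in sperm and 387 and 439 in testes, with 1533 in sperm replicate 1. All sperm values were above testes. The log2 fold change was 1.55 (SE 0.66) and missed the threshold (edgeR adjusted p = 0.0815), but was called without sperm replicate 3 (1.67, adjusted p = 0.00168). It was 0.78 with TMM factors and 0.53 with DESeq2's size factors. Eef1a1, which carries aminoacyl-tRNA to the ribosome, had 2, 0 and 0 counts in sperm and 41.8 and 45 in testes. Its pooled ratio was 0.0779 (exact 95% interval 0.00929 to 0.290), with edgeR adjusted p = 0.0903 and 0.0362 without sperm replicate 3. Eef1d, a subunit of the factor that recharges eEF1A, had 1, 0 and 0 counts in sperm and 64 and 62 in testes, a ratio of 0.0269 (exact 95% interval 0.000676 to 0.153). Its adjusted p was 0.0544 by edgeR and 0.00173 without sperm replicate 3, but 0.124 without sperm replicate 2 and 0.128 without sperm replicate 4. Both genes had 0 counts in sperm replicate 1.

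Eef2 and Eef1g lay nearer to testes on this scale. Eef2, the translocase, had 80.0, 179 and 0 ppm in sperm and 83.7 and 89.1 in testes, or -0.07 ± 1.42 (SE) in log2 terms, which turned positive without sperm replicate 4 (0.52) and was -1.01 with TMM factors and -1.22 with DESeq2's size factors. Eef1g had 2, 0 and 4 counts in sperm and 9.5 and 10 in testes (0.12, but -0.65 with TMM factors). Eef2k, the kinase that inhibits eEF2, had 3 counts in sperm replicate 4 and 0 in the others. Eef1a2, the muscle and neuron form of eEF1A, was not listed in any sample.

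**Figure D5:**
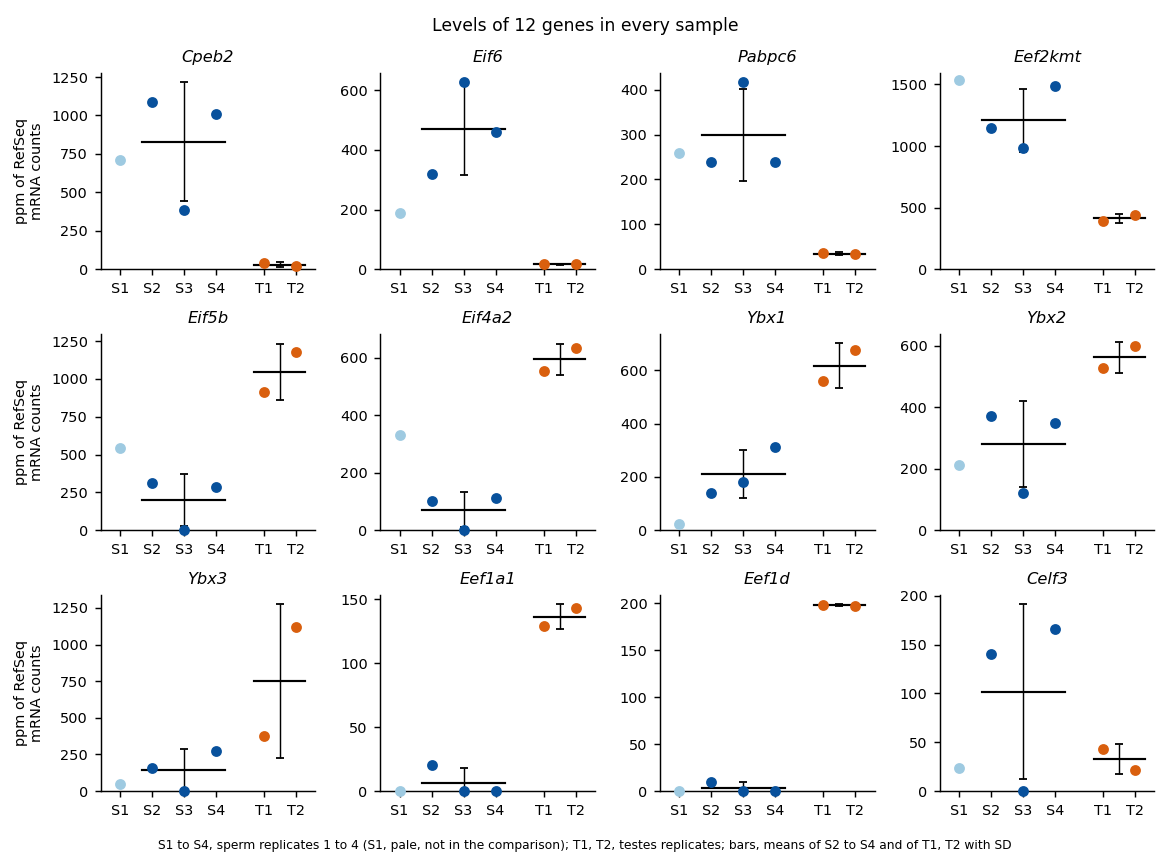
Level of 12 genes in ppm of RefSeq mRNA counts in every sample; points are samples, horizontal bars the means of sperm replicates 2 to 4 (dark) and of testes and error bars the SD, with sperm replicate 1 shown pale and not included. In the top row every sperm sample lies above both testes samples, and in Eif5b, Eif4a2, Ybx1, Ybx2, Ybx3, Eef1a1 and Eef1d every sperm sample lies below.

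All 3 Y-box proteins, which coat stored mRNAs in germ cells, were below testes in every sperm sample, and none was called. In the 3 sperm samples compared, 45% of all genes tested were likewise below both testes samples. Whether the family differs from that share was not tested. Ybx2, the germ-cell form also known as MSY2, had 370, 119 and 350 ppm in sperm and 527 and 598 in testes, or -0.98 ± 0.83 (SE) in log2 terms (adjusted p = 0.394 by edgeR), which lay above the median of all genes. Ybx1 had 140, 179 and 313 ppm against 558 and 677 (-1.56, adjusted p = 0.164, and 0.0331 without sperm replicate 3). Ybx3 had 160, 0 and 276 ppm against 378 and 1120.1, so the testes samples themselves differed widely (-2.30, adjusted p = 0.0704, and 0.00564 without sperm replicate 3). Without testes replicate 2 its difference was -1.34 (adjusted p = 0.819). Per length, Ybx2 was at 18.2 ± 9.53 FPKM in sperm and 43.2 ± 6.07 in testes (SD over 3 and 2 samples), beside 9.74 ± 5.03 and 33.6 ± 6.24 for Ybx1. Of the transcripts of Ybx3, NM_139117 held 0 of 31 counts in sperm (Wilson 95% interval 0 to 11.0%, counting error only). It held 44.5 counts beside 77.5 on NM_011733 in testes replicate 1, and 53.45 beside 298.55 in replicate 2, so its share also differed between the testes samples.

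The cytoplasmic poly(A)-binding proteins, which cover the mRNA tail, split by gene. Pabpc6 (chromosome 17, 9666497 to 9669704) was at 240, 418 and 239 ppm in sperm, 259 in sperm replicate 1, and 36.5 and 33.0 in testes. Every sperm sample was above testes, but the log2 fold change of 3.07 (SE 1.28) missed the threshold (edgeR adjusted p = 0.0748, and 0.00878 without sperm replicate 3). The edgeR adjusted p was 0.152 without sperm replicate 2 and 0.142 without sperm replicate 4. Pabpc2, the testis-specific form, had 0 counts in all 4 sperm samples and 14 and 31 in testes. Taken at 3 counts over the 3 sperm samples, it was at least 4.42-fold lower in sperm (edgeR adjusted p = 0.0746, and 0.0394 without sperm replicate 3). The exact 95% interval of its pooled ratio was 0 to 0.290. Pabpc1, the general form, had 1, 0 and 0 counts in sperm and 18 and 11 in testes, a ratio of 0.117 (exact 95% interval 0.00286 to 0.705, adjusted p = 0.165). Per length, Pabpc6 stood at 9.07 ± 2.63 FPKM in sperm and 1.27 ± 0.0212 in testes, where Pabpc2 was at 3.29 ± 1.95 and Pabpc1 at 1.89 ± 0.516. These genes are close copies of each other, so shared fragments may have been split between them by the counting.

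Celf3, a brain-enriched regulator of splicing and the marker of the group, had 140, 0 and 166 ppm in sperm and 43.4 and 21.8 in testes, with 23.6 in sperm replicate 1. Both other sperm samples lay above testes, but replicate 3 was at 0, so the groups overlapped (1.67 ± 1.5 SE in log2 terms, edgeR adjusted p = 0.420). The counts fell on different transcript models. In sperm replicates 2 to 4, NM_001289613 held 23 of 23 counts (100%, Wilson 95% interval 85.7% to 100%), as 14, 0 and 9, and in testes 0 of 21 (0 to 15.5%). The models also differed between the testes samples, with 14 and 0 counts on NM_172434 and 0 and 6.85 on NM_001289620, and the only count of sperm replicate 1 was on NM_001289616. The intervals cover counting error only, and the transcript NM_001289613 had an adjusted p of 0.128 by edgeR on single transcripts. The study also chose this transcript for qPCR, so its share is not taken as independent evidence. By RT-PCR the study did not obtain its full length from sperm, and it describes the Celf3 mRNA there as fragmented. Which of the annotated starts printed above each model uses was not analysed here, and Celf3 overlaps Riiad1.

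Its relative Celf5 had the most counts of the family in testes, at 647 and 763 ppm against 328, 0 and 211 in sperm (-1.90, SE 0.84, edgeR adjusted p = 0.0862, and 0.0402 without sperm replicate 3), without overlap. Celf1, the CUG-binding protein linked to mRNA decay, had 4, 0 and 0 counts in sperm and 5 and 6 in testes. Celf4 had 3.4 counts in sperm replicate 2 only and 18.3 and 9.7 in testes, Celf6 had 1 count in 1 testes sample, and Celf2 was not listed. The repressor Pum2 was sparse too, with 4 counts in sperm replicate 2 only.

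Igf2bp3, an mRNA-stabilizing protein, was among the 5 storage genes with the most counts in both groups. It had 150, 686 and 166 ppm in sperm and 276 and 328 in testes, and sperm replicate 3 alone was above testes. Its log2 fold change of 0.10 (SE 0.93) turned to -1.08 with TMM factors. Larp1, which binds mRNAs of the translation machinery itself, had 320, 0 and 184 ppm against 124 and 232, with overlap (-0.01, SE 1.15). Larp1b had 0 counts in sperm and 15 and 22 in testes.

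Genes around this machinery, from lists made for this comparison, are set beside all genes tested, of which 3.54% were called higher and 3.65% lower. Of 9 termination and ribosome-recycling genes, 6 were tested and 0 called. Of 24 other mRNP and poly(A) regulators, 14 were tested and 0 called. At an unadjusted p below 0.05, 2 and 5 of them were lower and 0 higher, where 30% of all genes tested were lower. Of 11 genes that link mTOR and MNK signalling to translation, 7 were tested, with Akt1s1 (log2 difference 3.44 ± 0.93 SE, adjusted p = 0.00626 by edgeR) and Tsc1 (3.82, SE 1.01, adjusted p = 0.00483) higher in sperm. Akt1s1 encodes PRAS40, an inhibitor of mTORC1, and Tsc1 encodes a subunit of the complex that restrains mTORC1. Akt1s1 had 87, 21 and 36 counts in sperm and 21 in each testes sample, and Tsc1 had 69, 17 and 37 against 20.0 and 7.97. Tsc2, the partner of Tsc1, was called lower (adjusted p = 0.0445) on 0 counts in sperm and 84.7 and 0 in testes, so its groups overlapped and the call rested on testes replicate 1. In fits added after seeing the data, the calls of Akt1s1 and Tsc1 were both lost with TMM factors (adjusted p = 0.101 and 0.0754), without the minimum count, without sperm replicate 2 and without either testes sample, and kept under the other 8. The call of Tsc2 was kept in 4 of them. At an unadjusted p below 0.05 by edgeR, 3 of the 7 tested were higher and 3 lower, beside 9.55% and 30% of all genes tested. The kinase Mtor had 0 counts in sperm and 6 and 17 in testes (adjusted p = 0.0746), and its partner Rptor had 4, 0 and 1 against 72 and 90 (-3.42, adjusted p = 0.0746). The kinase Mknk2, which phosphorylates eIF4E, had 1, 10 and 0 counts against 2 and 3 (3.43, adjusted p = 0.116).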

How the data were processed

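Strand-specific RNA sequencing was done on mouse mature sperm (4 samples, titles Sperm) and testes (2 samples, titles Testes), and samples were grouped by these titles. The study's methods state that reads were filtered and aligned with SOAPaligner/SOAP2, while the submitters' processing notes name HISAT and the build mm10. The counting program and its use of strand are not given in the sources used here. The authors deposited, per transcript, an estimated count (not scaled, not always whole), FPKM (fragments per kilobase of transcript and per 1000000 mapped reads) and a length. A transcript missing from a table was taken as 0.

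RefSeq mRNA rows were summed per gene and scaled per 1000000 of the sample's RefSeq mRNA counts. No other type of row carried a member's name. Sums were rounded for edgeR 4.0.16 (quasi-likelihood test, R 4.3.3), with the RefSeq mRNA total as library size, a summed count of at least 10, a Benjamini-Hochberg adjusted p below 0.05 over all genes tested and a fold change above 2. The SE printed with an edgeR fold change is its absolute log2 value over the square root of the test's F statistic, not a fitted standard error. Shares and numbers of genes were tested by exact permutation, two-sided (scipy 1.17.1). The scripts were tested on simulated data. Alternatives were TMM and DESeq2 size factors, DESeq2 1.42.0, limma 3.58.1 on log2(FPKM + 1), no minimum count, edgeR's filterByExpr, single transcripts, all 4 sperm samples with and without the replicate number as a block, and each replicate left out. The study does not state which mice gave which testes sample, so equal numbers need not mean the same mice, and samples were not treated as paired. Deviations of same-numbered sperm and testes samples from their group means had r = -0.0130 and -0.0486 over 6786 genes (2 pairs). With 2 testes samples these deviations mirror each other, so r cannot decide whether samples share mice.

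Total estimated counts ran from 366455 to 2866856 per sample, and 3 counts, the floor used, equalled 9.30 to 89.5 parts per 1000000 mRNA counts (ppm). Intervals and floors cover counting error only. The sperm samples are pools of different mice and the testes samples biological replicates per the methods, and p-values measure the spread between these samples. The labels give no library or sequencing batch.

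Named are Celf3, every member called, the 5 highest members of each group in sperm and in testes, and a fixed list of germ-cell forms and their relatives. Larp1, Larp1b, Eif4b and the other genes in the plots were named after their values were seen. A gene of that list is not reported here. The members, gene lists and tests were chosen with earlier results of these data known. Coordinates and promoters are from RefSeq on GRCm38.p6, to which all 84 genes were matched by accession. Sequences of some members and of proteins were not used here.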

Additional observations from a re-analysis of the deposited data

Results flagged for a closer look

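Levels in the 4 sperm samples (replicate 1 included) were examined for 1 sample that stands far from the others in 33 groups of values, and 11 were found. Chance gives about 1 in 20 for measured values, but a gene at 0 in 3 samples is found by any count in the fourth, so the 11 cannot be set against that rate. In sperm replicate 2, the deepest, 8 of the genes examined had counts while the other 3 sperm samples had 0, and of all 84 members this held for 21. The levels of the 8 there, in parts per 1000000 mRNA counts (ppm), were 39.99 for Celf1, 34.1 for Celf4, 19.99 for Eef1a1, 10.1 for Eef1d, 11.2 for Eif3a, 9.997 for Eif5a2, 9.997 for Pabpc1 and 39.99 for Pum2. For Eef1a1, Eef1d, Eif3a, Eif5a2 and Pabpc1 this was 1 or 2 counts. Sperm replicate 3, the shallowest, stood highest for Eif5 (298 ppm, 10 counts), Igf2bp3 (686 ppm, 23 counts) and Pabpc6 (418 ppm, 14 counts). The part of depth in these values was not tested.

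Sperm replicate 1, which the comparison leaves out, had Cpeb2 at 708 and Eif6 at 189 ppm, above both testes samples.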

How the results depend on the processing

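Over 391 alternative fits of the named genes, 273 kept their direction and their side of the threshold, 28 lost a call, 47 gained one and 43 changed sign, none of the last on a called gene. Cpeb2 stayed called in 11 of 14 alternatives and Eif6 in 10, Eif4a2 in 4 and Eif5b in 3, all in 1 direction. The number of members called moved with the settings. TMM factors gave 0 higher and 0 lower, DESeq2 size factors in edgeR 2 and 19, DESeq2 2 and 11, limma 3 and 14, no minimum count 0 and 0, filterByExpr 4 and 4, all 4 sperm samples 2 and 10, and single transcripts 2 and 0. Of all genes tested, 2.81% were higher and 12.9% lower with DESeq2, 3.37% and 22.4% with limma, 0.104% and 0.0278% without a minimum count, 13.4% and 14.9% with filterByExpr, 3.83% and 17.5% with all 4 sperm samples, and 1.34% and 1.06% as single transcripts. Leaving out 1 sample gave 1 to 5 higher and 0 to 11 lower, with both maxima without sperm replicate 3, where 9.01% and 10.4% of all genes were called. With the replicate number as a block (samples not known to be paired, 2 same-numbered pairs) 2 were called higher and 0 lower (all genes 2.35% and 1.48%). At these totals most members had under 10 counts in sperm, which limits the precision, and the cause of these changes was not tested.

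Fold changes of uncalled genes that changed sign were, with TMM factors, Celf1 -0.47, Eef1g -0.65, Eif3b -0.12, Eif5 -1.07 and Igf2bp3 -1.08. With DESeq2 size factors in edgeR they were Celf1 -0.85, Eef1g -0.82, Eif3b -0.50, Eif5 -1.15 and Igf2bp3 -1.10. With DESeq2 they were Celf1 -1.10, Eef1g -0.83, Eif3b -0.52, Eif5 -1.16, Igf2bp3 -1.11 and Pum2 -0.27. With limma they were Celf1 -0.15, Eef1g -0.48, Eif3b -0.33, Eif5 -0.22, Igf2bp3 -0.39 and Pum2 -0.0044. With all 4 sperm samples they were Celf1 -0.18, Eef1g -0.25, Eif4a1 0.71, Eif5 -0.029 and Igf2bp3 -0.049, and with the replicate block Eef1g -1.44, Eif4a1 1.19, Eif5 -0.44 and Igf2bp3 -0.85. As a single transcript Eif4a1 had 0.17. Leaving out 1 sample moved Celf1 between -4.70 and 0.65, Eef1g between -1.04 and 0.51, Eef2 between -0.89 and 0.52, Eif4a1 between -0.84 and 0.31, Eif5 between -0.91 and 1.11, and Igf2bp3 between -0.94 and 0.47.

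Of the shares, the log2 ratio for elongation (0.62) was -1.67 without Eef2kmt and -1.84 without Eef2kmt and Eef2k, the second chosen after seeing the data. That for initiation (-1.01) was -0.56 as a share of summed FPKM and -0.59 without Eif5b, and that for storage (-0.40) was -0.95 as a share of summed FPKM. The testes mean of 73.5 genes listed was 42.3 at the smallest total and 54.5 at 3 or more counts.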
